A study of Mus musculus with 6 samples.

Results

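A set of 10 genes widely used to recognise macrophages was followed through every oocyte library of the study. They were chosen by name, as Lyz2, C1qa, C1qb, C1qc, Ctss, Cd74, Adgre1, Cd68, Csf1r and Tyrobp, with their levels in these libraries already known, and all 10 were found among the 25631 genes of the table. Because their levels guided the choice, those levels are described here and carry no test.

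The study sequenced oocyte RNA of naturally aged mice, 14 months old, in 6 libraries. The 3 control libraries came from mice given water without drug. The 3 aminophylline libraries came from mice given 4.0 mM aminophylline, a theophylline derivative that inhibits phosphodiesterases, in drinking water for 1 week and then water only for 3 weeks. Mice of both groups received eCG, a gonadotropin that drives follicle growth, and their oocytes were taken by puncturing large antral follicles. How many mice or oocytes stand behind a library, and whether the libraries of a group came from separate mice, is not given in the sources used here, so the spread between libraries may be partly technical. Levels are FPKM (fragments per kilobase of transcript, scaled to the library's mapped total), which are per length and allow genes to be compared with each other. The reads behind each value were recovered from the FPKM, and a library held between 14112341 and 33641283 of them, with control library 2 the shallowest and control library 1 the deepest.

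Macrophages are phagocytes of the innate immune system that live in nearly every tissue, including the ovary, where they clear dying cells around degenerating follicles and corpora lutea. They carry the receptor for the growth factor CSF1, digest what they engulf with lysosomal hydrolases, present peptides on MHC class II molecules, and are a main source of C1q, the protein that starts the classical complement pathway. The oocyte itself is enclosed by the zona pellucida and by cumulus and granulosa cells. The puncture of a follicle opens a tissue that also holds blood vessels, theca cells and leukocytes.

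The start sites of 4 of the genes are shown because they frame the main contrast in the data, that between C1qb, which was abundant in every library, and its neighbour C1qc and the lysosomal genes Lyz2 and Ctss, which were abundant in 1 library. Each sequence runs 5′ to 3′ on the strand of the gene, from 250 bases before the start of transcription to 50 after it (RefSeq, GRCm38.p6). Capitals mark only the 6 letters GAGGAA or their reverse complement TTCCTC, a form of the site known for PU.1. PU.1 is an ETS transcription factor that macrophages depend on. The shorter core of ETS sites, GGAA, is not marked on its own and also occurs in the Lyz2 window. C1qb lies at chr4:136886151-136886450 (minus strand), C1qc at chr4:136892865-136893164 (minus strand), Lyz2 at chr10:117282223-117282522 (minus strand) and Ctss at chr3:95526536-95526835 (plus strand).
C1qb: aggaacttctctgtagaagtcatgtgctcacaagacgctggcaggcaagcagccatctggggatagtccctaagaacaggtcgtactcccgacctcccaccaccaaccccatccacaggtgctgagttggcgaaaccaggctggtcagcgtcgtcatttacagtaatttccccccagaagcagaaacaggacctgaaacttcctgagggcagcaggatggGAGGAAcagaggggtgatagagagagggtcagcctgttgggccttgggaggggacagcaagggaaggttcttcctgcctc
C1qc: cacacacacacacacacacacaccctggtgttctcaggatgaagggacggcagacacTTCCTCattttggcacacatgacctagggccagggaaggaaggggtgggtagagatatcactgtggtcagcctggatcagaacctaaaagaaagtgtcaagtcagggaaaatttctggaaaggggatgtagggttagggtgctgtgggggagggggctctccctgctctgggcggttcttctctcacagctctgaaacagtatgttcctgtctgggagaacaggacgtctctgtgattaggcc
Lyz2: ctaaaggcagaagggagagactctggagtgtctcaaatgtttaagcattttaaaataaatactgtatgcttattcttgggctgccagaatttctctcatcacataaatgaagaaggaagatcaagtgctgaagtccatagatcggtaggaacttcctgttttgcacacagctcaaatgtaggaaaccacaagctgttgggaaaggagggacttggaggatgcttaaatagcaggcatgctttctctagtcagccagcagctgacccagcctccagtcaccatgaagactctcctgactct
Ctss: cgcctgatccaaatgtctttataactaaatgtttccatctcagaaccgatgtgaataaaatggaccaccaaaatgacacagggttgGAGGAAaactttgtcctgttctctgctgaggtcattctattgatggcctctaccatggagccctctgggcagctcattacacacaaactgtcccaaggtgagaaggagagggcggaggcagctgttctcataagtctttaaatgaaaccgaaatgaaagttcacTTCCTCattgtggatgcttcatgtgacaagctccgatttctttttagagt

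The 6 letters, searched on both strands, were present in 4 of the 5 promoters used, those of C1qb, C1qc, Ctss and Cd68. They were not in the window of Lyz2. The promoters of Cd74 and Csf1r, on chromosome 18, were left out of the search. C1qa, Tyrobp and Adgre1 had no promoter at hand. Over the genome the 6 letters occurred in 28.3% of all 32851 windows of 300 bases. C1qb and C1qc each held 1 match and Ctss held 2. Whether these letters bear on the levels of the genes was not tested.

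Most of the macrophage genes were high in control library 1 and near or at 0 elsewhere, Cd68 and Csf1r were present at low levels in every library, and C1qb was abundant in every library. Of the 10 genes, 9 had their highest level in control library 1. Control library 1 held more than 3 reads of each of the 10 genes, whereas the other libraries held more than 3 reads of between 3 and 6 of them. Without C1qb, the summed level of the remaining genes was 129 FPKM in control library 1 and between 1.21 and 2.83 FPKM in the other libraries. Reads are from bulk material, so more cells of a type and more RNA per cell cannot be told apart.

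**Figure D1:**
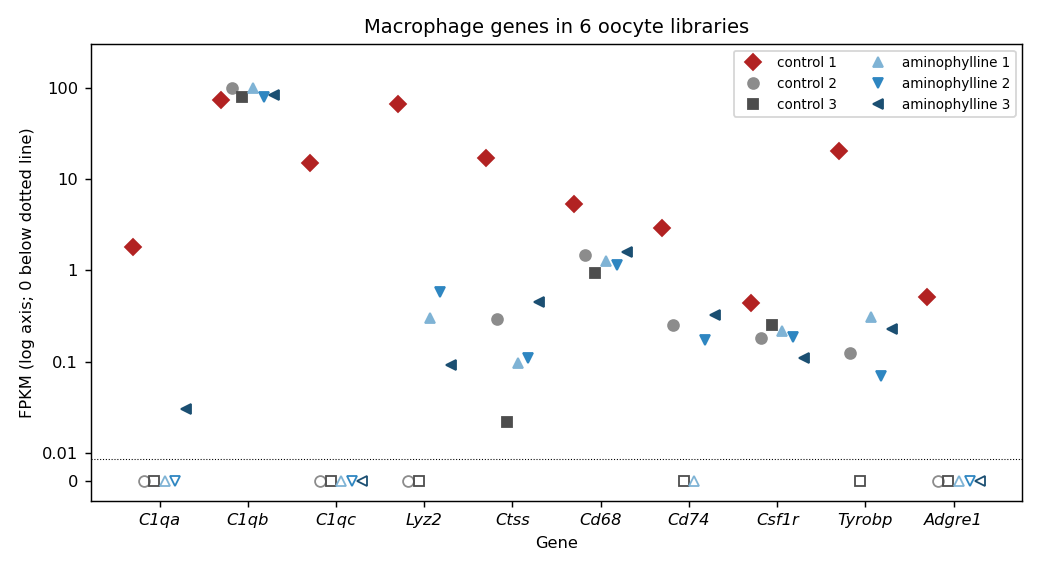
FPKM (log axis, with values of 0 drawn as open symbols below the dotted line) of the 10 genes in each of the 6 libraries, 1 symbol per library. The red diamonds of control library 1 stand above all other symbols for 9 of the 10 genes, and C1qb lies between 72.3 and 99.8 FPKM in every library.

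C1q is built from A, B and C chains, each encoded by its own gene, and the assembled protein contains all of them. The genes lie side by side on the minus strand of chromosome 4, with C1qb at chr4:136880126-136886200, C1qc at chr4:136889801-136892936 and C1qa at chr4:136895916-136898844, within a span of 18719 bases. No other annotated gene overlaps them, and no stretch of 100 bases in the C1qb transcript is shared with C1qc or C1qa.

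C1qb, the B chain, was at 72.3, 99.8 and 79.8 FPKM in control libraries 1, 2 and 3, and at 98.7, 79.2 and 82.8 FPKM in aminophylline libraries 1, 2 and 3. Between 1555 and 3077 reads stood behind each of these values. Its lowest level was in control library 1, the library in which the other macrophage genes peaked, and the groups overlapped fully. The control mean was 84.0 ± 14.2 FPKM (SD, n = 3) and the aminophylline mean 86.9 ± 10.4 FPKM (SD, n = 3).

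C1qc, the C chain, was at 14.8 FPKM in control library 1 and had no read in the other 5 libraries. Its level in control library 1 was at least 65.0-fold above the level that 3 reads give in the shallowest library. The table fixes the reads of a gene seen in a single library only up to a whole factor, and 465 reads were taken because they give a length of 935 bases, close to the annotated transcript. With the smallest whole solution of 93 reads the bound was at least 13.0-fold.

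C1qa, the A chain, was at 1.79 FPKM in control library 1 from 65 reads, and its only read elsewhere was in aminophylline library 3. The ratio between these libraries was 59.1 with a 95% exact (Clopper-Pearson) interval of 10.2 to 2370, which covers counting error only, as do all intervals here. Thus the chains of C1q did not appear together in 5 of the 6 libraries, where C1qb stood at 79.2 FPKM or more, C1qc had no read and C1qa had at most 1. In control library 1, C1qc was at 0.204 and C1qa at 0.0247 of the level of C1qb. C1qb was the only one of the 10 genes whose highest level was not in control library 1, so its levels go against a label of transcripts that mark that library.

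**Figure D2:**
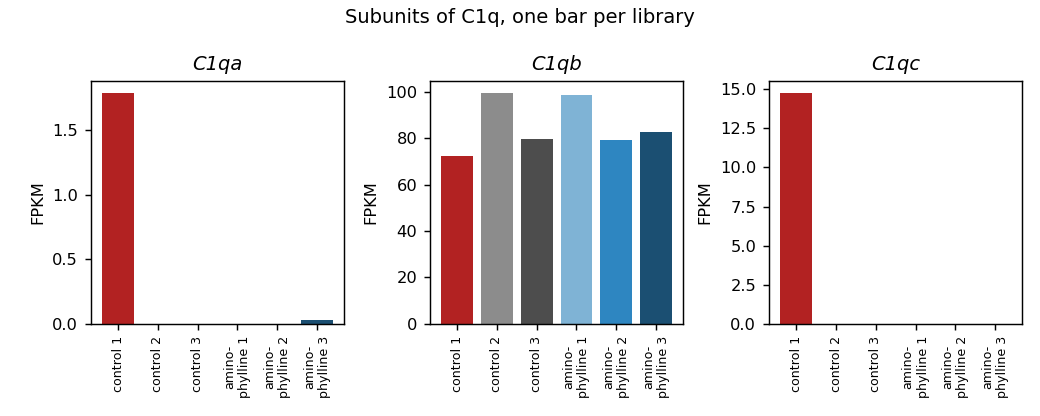
FPKM of the genes of the A, B and C chains of C1q, 1 bar per library, each panel with its own axis from 0. C1qb is present in all 6 libraries at 72.3 to 99.8 FPKM, whereas C1qc is present in control library 1 alone, at 14.8 FPKM, and C1qa is at 1.79 FPKM there with 1 read in aminophylline library 3.

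Among the genes of lysosomal proteins, Lyz2 and Ctss were nearly confined to control library 1, whereas Cd68 was present in every library. Lyz2 (chr10:117277541-117282272), which encodes the lysozyme of macrophages and other myeloid cells, was at 66.4, 0 and 0 FPKM in the control libraries and at 0.302, 0.573 and 0.0928 FPKM in the aminophylline libraries. Behind the value of control library 1 stood 2362 reads, against 0 and 0 in the other controls and 9, 15 and 3 in the aminophylline libraries. It ranked 1340 of the 25631 genes in control library 1. Its level there was 116 times that of the next library (95% interval 70.2 to 208). Control libraries 2 and 3 and aminophylline library 3 were at 3 reads or fewer, so among the libraries other than control library 1 only aminophylline libraries 1 and 2 held a measurable trace. Lyz1, its close paralog, was not analysed here. Of the windows of 100 bases in the longest Lyz2 transcript, 1.97% occurred also in Lyz1, so few reads of that length could fit both.

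Ctss (chr3:95526786-95556405), the cathepsin that trims the invariant chain before peptides are loaded on MHC class II, was at 17.1, 0.293 and 0.0217 FPKM in the controls and at 0.0977, 0.111 and 0.451 FPKM in the aminophylline libraries. The 834 reads of control library 1 compare with 6 and 1 in the other controls and 4, 4 and 20 in the aminophylline libraries. The level of control library 1 was 37.9 times that of the next, aminophylline library 3 (95% interval 24.4 to 62.4). Without control library 1, the log2 ratio of the group means changed from -4.72 to 0.48.

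Cd68 (chr11:69664213-69666170), a heavily glycosylated protein of the lysosomal membrane, was at 0.933 FPKM or more in every library, the highest minimum among the 9 genes without C1qb. It was at 5.29, 1.48 and 0.933 FPKM in the controls and at 1.25, 1.13 and 1.60 FPKM in the aminophylline libraries. Control library 1 was 3.31 times above the next (95% interval 2.48 to 4.47), and the remaining libraries held 26 to 61 reads each with no order by group.

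Cd74 (chr18:60803849-60812652) encodes the invariant chain that escorts MHC class II molecules and also acts as a receptor for the cytokine MIF. Its levels were 2.88, 0.25 and 0 FPKM in the controls and 0, 0.171 and 0.323 FPKM in the aminophylline libraries. The 137 reads of control library 1 gave a level 8.90 times that of aminophylline library 3, the next (95% interval 5.13 to 16.7). Control libraries 2 and 3 held 5 and 0 reads and the aminophylline libraries 0, 6 and 14, so the groups overlapped at these low counts.

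The surface proteins covered a wide range of levels. Tyrobp (chr7:30413782-30417582), which encodes the signalling adaptor DAP12 that pairs with activating receptors of myeloid and NK cells, was at 20.3, 0.123 and 0 FPKM in the controls and at 0.308, 0.0702 and 0.227 FPKM in the aminophylline libraries. Its 392 reads in control library 1 compare with at most 5 in any other library, and the ratio to the next was 65.8 (95% interval 28.0 to 204). Adgre1 (chr17:57358581-57483529), which encodes the macrophage antigen F4/80, was at 0.506 FPKM in control library 1 from 57 reads and had none in the other 5 libraries. This was at least 7.97-fold above the level of 3 reads in the shallowest library.

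Csf1r (chr18:61105572-61131139), the receptor for CSF1 and IL-34, varied least among the 9 genes. It was at 0.437, 0.183 and 0.252 FPKM in the controls and at 0.219, 0.188 and 0.110 FPKM in the aminophylline libraries, from 10 to 57 reads. Control library 1 was 1.74 times above the next, control library 3 (95% interval 1.10 to 2.79). Csf1r overlaps Hmgxb3 on the opposite strand in the annotation. Whether the counting used strand is not given in the sources used here, so reads of the pair may not be separable.

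Seen library by library, the trace of macrophage genes outside control library 1 was small and uneven. Control library 1 held 4591 reads of the 9 genes without C1qb, or 136 RPM (reads scaled to the library's total; 95% exact interval 133 to 140). Control library 2 held 48 reads, or 3.4 RPM, and 4 of the 10 genes had no read there. Control library 3 held 69 reads, or 2.17 RPM, and 6 of the genes had no read. Those of control library 3 were almost all from Cd68 and Csf1r, with a single read of Ctss.

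Aminophylline library 1 held 86 reads of the 9 genes, or 3.05 RPM, and aminophylline library 2 held 79, or 3.19 RPM. Aminophylline library 3 held 116 reads, or 3.79 RPM, which was the highest level after control library 1 and included the only read of C1qa outside that library. The 5 libraries other than control library 1 thus lay between 2.17 and 3.79 RPM, with the 3 aminophylline libraries between or just above the 2 controls. In each of these 5 libraries most of the reads came from Cd68 (26 to 61) and Csf1r (10 to 31). The range therefore says little about the remaining genes. Even in control library 1 the 9 genes made up 0.0136% of all reads.

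With control library 1 included, the comparison of the groups was set by it. The summed level of the 10 genes was 128 ± 64.5 FPKM (SD, n = 3) in the control group and 89.3 ± 10.2 FPKM (SD, n = 3) in the aminophylline group, a log2 ratio of -0.52, which was -0.04 without control library 1. Without C1qb the sums were 44.3 ± 73.7 FPKM (SD, n = 3) and 2.42 ± 0.361 FPKM (SD, n = 3), a log2 ratio of -4.20. That ratio turned to 0.45 when control library 1 was left out as well. For all 10 genes the levels of the groups overlapped. Among the 10340 genes that reached 1 FPKM in at least 3 libraries, 4.96% were lower and 7.51% higher without overlap. Because 6 of the 10 genes had no read in control library 3, a lower level without overlap was not possible for them.

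Only C1qb and Cd68 reached 1 FPKM in at least 3 libraries, the level required for the fit across all genes. A gene was called in that fit (limma on log2(FPKM + 1)) at an unadjusted p under 0.05 and a fold change over 1.5, which 3.21% of the 10340 genes tested passed, 215 of them higher and 117 lower with aminophylline. No adjusted p was under 0.05 and the smallest was 0.455 (limma, Benjamini-Hochberg), with 750 genes at an unadjusted p under 0.05. With the replicate number as a block, 35 genes higher and 12 lower had an adjusted p under 0.05 (smallest 0.00207, limma), and neither C1qb nor Cd68 was called. When the libraries were rescaled to a common sum, the calls were 147 higher and 151 lower. Neither of the 2 genes was called in the unblocked fit. Their fitted log2 fold changes were 0.06 (SE 0.176) and -0.42 (SE 0.366), and without control library 1, where 1.71% of the genes tested were called, they were -0.04 and 0.08 and neither was called. The other 8 genes were too low to be tested.

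The wider set of macrophage genes divided in the same manner. This list was also drawn up with earlier results of these data known, so its counts are a description and no independent support. Of 39 further genes of this kind, 36 had more than 3 reads in control library 1, against 13 to 21 in each other library, and 30 had their highest level in control library 1. Their summed level was 220 FPKM in control library 1 and between 52.6 and 55.3 FPKM in the other libraries. In 20 of them control library 1 held more than 3 reads and stood at least 5-fold above every other library. Fcer1g, the gamma chain shared by Fc receptors, was at 57.6 FPKM in control library 1 and at 0.368 FPKM or less elsewhere. Wfdc17, a secreted protein of activated macrophages, was at 50.6 FPKM and at 0.697 FPKM or less elsewhere. Cd52, a small surface glycoprotein of leukocytes, was at 12.6 FPKM from 213 reads and had no read in the other libraries.

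A minority was present in every library, as C1qb was. Lgmn, a lysosomal asparaginyl endopeptidase, was at 35.3 FPKM in control library 1 and at 22.3 to 29.3 FPKM elsewhere. Apoe, the lipid carrier of macrophages and many other cells, was at 9.94 FPKM in control library 1 and at 6.4 to 10.7 FPKM elsewhere. In all, 12 of the 39 genes had more than 3 reads in every library. Among 8 that could be tested, 0 were called (limma, 0 also at an unadjusted p under 0.05 and 0 with voom on the recovered reads), where 3.21% of all genes tested were called, and their median log2 fold change was 0.02 beside 0.0954 for all genes tested. Among the tested genes of the list, the groups did not overlap for Lgmn and Lcp1, both lower with aminophylline. Of all genes tested, 4.96% were lower without overlap and 7.51% higher. Fcgr3 and Ccl9, too low to be tested and so not covered by those shares, were also lower without overlap. Fcgr3 had 29 to 132 reads per library. Ccl9 had 21, 1 and 2 reads in the controls and none with aminophylline, so its lack of overlap rested on counts of 1 and 2 reads.

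**Figure D3:**
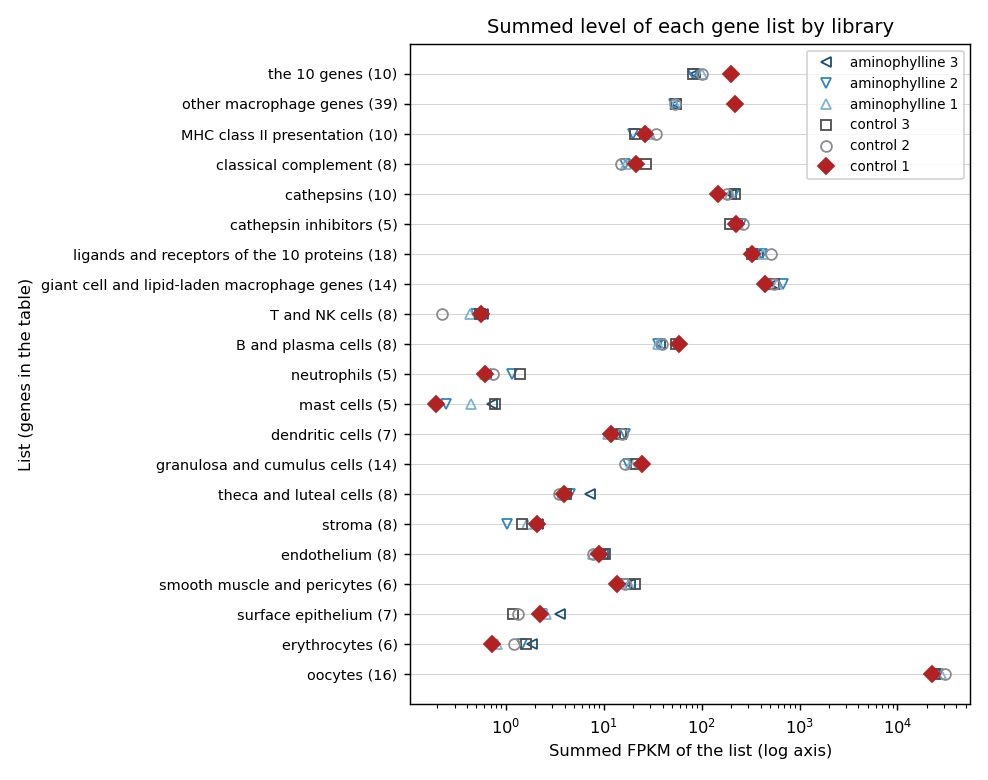
Summed FPKM (log axis) of each list of genes in each library, with the number of its genes in the table in brackets, control library 1 as filled red diamonds and the other libraries as open symbols. The red diamonds lie apart to the right for the 10 genes and the other macrophage genes, at 202 and 220 FPKM, and lie within or close to the other symbols for the remaining lists.

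The cathepsins, proteases of the lysosome, showed which members of a family followed Ctss. Ctsc, which activates serine proteases of leukocytes, had 361 reads in control library 1 and at most 34 elsewhere. Ctsz had 72 reads against at most 10, and Ctso had 24 against at most 1. In each of them control library 1 stood at least 5-fold above every other library. By contrast Ctsh was at 115 FPKM in control library 1 and at 143 to 172 FPKM elsewhere, Ctsb at 20.9 FPKM and at 17.9 to 30.9 FPKM, and Ctsd at 7.52 FPKM and at 7.32 to 18.3 FPKM. The sum over the 10 cathepsins listed was lowest in control library 1, at 148 FPKM against 183 to 221 FPKM, and Ctsh made up most of that sum in every library. Cst3 and Cstb, inhibitors of cathepsins, were at 176 and 49.1 FPKM in control library 1, within the ranges of 151 to 228 and 38.7 to 55.1 FPKM of the others.

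The class II molecules that Cd74 escorts were uneven as well. H2-Aa, an alpha chain, was present in every library at 6.23 to 16.0 FPKM, from 174 to 530 reads. H2-Ab1, the beta chain it pairs with, had 29 reads in control library 1 and at most 4 elsewhere. H2-Oa, a chain of the accessory molecule that dampens peptide loading, was lowest in control library 1, at 8.71 FPKM against 11.1 to 18.2 FPKM. As with C1q, 1 chain was thus found in all libraries and its partner mainly in control library 1.

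Of 18 genes of ligands and partners of the 10 proteins, 11 had more than 3 reads in every library. Another 3 stood at least 5-fold higher in control library 1 than in every other library, from 22 reads or fewer there. Il34, a ligand of Csf1r, was at 4.41 FPKM in control library 1 and at 7.76 to 14.2 FPKM in the others. Mif, the ligand of Cd74, was at 225 FPKM in control library 1 and at 171 to 391 FPKM elsewhere. Calr and C1qbp, which bind C1q, were at 28.6 to 63.2 and 49.0 to 72.3 FPKM over the 6 libraries. Sirpb1a, a receptor that signals through the Tyrobp adaptor, was at 10.9 FPKM in control library 1 and at 2.81 to 3.93 FPKM elsewhere. In the complement pathway, the regulator Cd55 was at 12.1 to 23.3 FPKM and C2 at 0.0458 to 0.563 FPKM, and 0 of the 8 genes listed was 5-fold higher in control library 1.

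Of 14 genes that mark lipid-laden macrophages and the giant cells of the aged ovary, 6 were highest in control library 1 and 2 stood there at least 5-fold above every other library. These were Spp1, a secreted phosphoprotein, at 6.74 FPKM from 376 reads and at most 8 reads elsewhere, and Fabp4, a fatty acid carrier, at 13 reads and none elsewhere. Lipa, the lysosomal acid lipase, had 30 reads in control library 1 and at most 6 elsewhere. The sum of the list was 448 FPKM in control library 1 and 544 to 681 FPKM elsewhere, of which Cd9 and Fabp5 made up most. Cd9, Fabp5, Cd36 and Lpl, which many other cells also express, were above 10 FPKM in every library. Across all lists beside the 10 genes, 66 of the 210 genes in the table were tested and 0 were called (limma, with 3 at an unadjusted p under 0.05 and 0 called with voom), against 3.21% of all genes tested.

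The summed levels of other cell types that a punctured follicle could release did not rise in control library 1 as those of the macrophage genes did. Where 1 or 2 genes fill a sum, it cannot show a rise of the rest. The summed level of 8 T and NK cell genes was 0.554 FPKM there and 0.225 to 0.587 FPKM elsewhere, that of 5 neutrophil genes 0.618 against 0.617 to 1.39 FPKM, and that of 5 mast cell genes 0.193 against 0 to 0.776 FPKM. The 8 B cell genes summed to 58.9 FPKM in control library 1 and to 35.7 to 54.9 FPKM elsewhere. Among them 2, Cd79b and Cd79a, stood at least 5-fold above every other library in control library 1. Cd79b, a chain of the B cell receptor complex, had 34 reads there and none elsewhere, and Cd79a had 14 against at most 2. Ms4a1, which encodes the B cell antigen CD20, was at 34.9 to 56.6 FPKM in all 6 libraries and made up most of the B cell sum in each. Dendritic cell genes summed to 11.8 FPKM in control library 1 and to 11.1 to 16.5 FPKM elsewhere, most of it from Zbtb46 and Bst2. The erythrocyte genes summed to 0.726 FPKM in control library 1 and to 0.814 to 1.87 FPKM in the others.

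Of the lists of ovarian somatic cells, only that of granulosa and cumulus cells had its highest sum in control library 1. Its 14 genes summed to 24.7 FPKM in control library 1 and to 16.7 to 23.7 FPKM elsewhere. Cyp19a1, the aromatase of granulosa cells, was at 15.7 against 7.37 to 13.9 FPKM and made up most of the sum in control library 1. Only 2 of the 14 genes were highest there, and Inha was lowest there, at 0.417 against 1.05 to 1.66 FPKM. Theca and luteal genes summed to 3.92 FPKM against 3.53 to 7.22 FPKM, stromal genes to 2.08 against 1.02 to 2.13 FPKM and endothelial genes to 8.88 against 7.74 to 10.4 FPKM. Smooth muscle and pericyte genes summed to 13.7 FPKM against 16.5 to 20.8 FPKM, and surface epithelium genes to 2.23 against 1.18 to 3.56 FPKM. The surface epithelium sums were 2.23, 1.33 and 1.18 FPKM in the controls and 2.60, 2.37 and 3.56 FPKM in the aminophylline libraries, each of which lay above every control. Of all genes tested, 7.51% were higher without overlap, and the share among sums of lists was not computed. Epcam, the only gene of this list that was tested, overlapped between the groups and was not called. Krt7 and Krt18 did not overlap, but at 13 reads or fewer in every library. The 16 oocyte genes, among them Zp3 of the zona pellucida, Gdf9 and Dppa3, summed to 22600 to 30600 FPKM, with control library 1 the lowest. The libraries were thus oocyte material by their defining markers, control library 1 included. The part of contaminating cells in the levels of control library 1 was not tested.

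The number of genes that stood apart in a library was counted without regard to gene lists. A gene was counted when its FPKM was at least 1 and at least 5-fold above every other library. There were 37 such genes in control library 1 and 6, 1, 3, 1 and 1 in control libraries 2 and 3 and aminophylline libraries 1, 2 and 3. Of the 37, 6 were among the 10 macrophage genes (Lyz2, Tyrobp, Ctss, C1qc, Cd74 and C1qa), 8 more were on the wider macrophage list and 36 were protein coding. The 37 took 16184 reads of control library 1, or 0.0481% of its total. At an FPKM of at least 5 there were 15 in control library 1 and 0 in every other library.

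The highest of them was Tmsb4x, an actin-binding peptide precursor abundant in leukocytes, at 144 FPKM in control library 1 and at most 3.94 FPKM elsewhere. It was followed by Lyz2, Fcer1g, Wfdc17, Tyrobp, Ctss, C1qc, Cd52 and Ms4a7, the last a membrane protein of macrophages with 1298 reads against at most 12. Aif1, an actin-binding protein of macrophages and microglia also known as Iba1, had 271 reads against at most 7. Cyba, a subunit of the phagocyte NADPH oxidase, was at 6.62 FPKM against at most 0.957 FPKM. Clec4b1 and Clec4a3, C-type lectins of myeloid cells from a cluster of similar genes whose reads may be split between copies, were at 9.10 and 4.11 FPKM against at most 0.904 and 0.0266 FPKM. Lst1, Crip1, Arhgdib, Gngt2 and Bcl2a1b, all expressed in leukocytes, completed the 15 highest outside the 10 genes, at 3.38 to 5.86 FPKM. Bcl2a1b has close copies in the genome, so its value is uncertain.

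**Figure D4:**
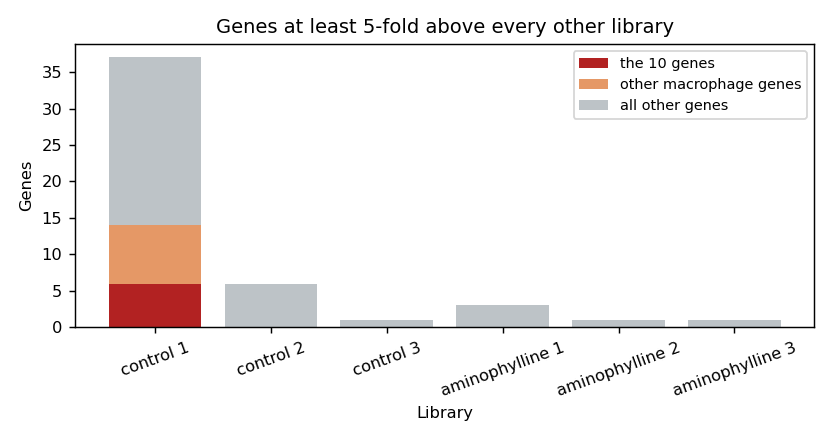
Number of genes with an FPKM of at least 1 that stood at least 5-fold above every other library, by library, split into the 10 genes, other macrophage genes and all others. Control library 1 has 37 and the other libraries have 1 to 6.

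The genes whose pattern over the 6 libraries was most like that of the 10, by Pearson's r with their mean log2(FPKM + 1) among 6755 genes that reached 5 FPKM, were Cd52, Spp1, Ms4a7, Fcer1g, Wfdc17, Aif1, Lst1, Wdr33, Calm2 and CYTB. Their r ran from 0.988 to 0.998 over 6 libraries and rested on the single high value of control library 1. The first 7 are genes of leukocytes or macrophages. The last 3 are widely expressed and rose far less there: Wdr33, an mRNA 3′-end processing factor, was at 11.5 FPKM against 8.94 to 9.28 FPKM, Calm2, a calmodulin gene, at 1930 FPKM against 1230 to 1340 FPKM, and the mitochondrial cytochrome b gene at 1650 FPKM against 808 to 897 FPKM.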

How the data were processed

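The authors deposited FPKM values per gene for 6 libraries (25631 genes), beside columns of gene annotation. The genome build is GRCm38 (mm10) per the submitters' processing notes, and the aligner, counter and annotation are not given in the sources used here. Sequences and coordinates are from RefSeq and GENCODE tables of the same build. Columns of samples not used numbered 0.

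Library totals and whole reads were recovered from ratios between the deposited FPKM values. Among 22583 genes above 0 in at least 2 libraries, 100% of values came out whole within 0.0001. Over all 25631 genes, 482 needed a whole factor. A floor of 3 reads corresponds to 0.0892 to 0.213 RPM (reads scaled to the library total), and intervals are exact at 95%. Floors and intervals cover counting error only.

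Groups were taken from the labels (3 control, 3 aminophylline). The fit was limma 3.58.1 in R 4.3.3 with a trended variance on log2(FPKM + 1), tested on both sides, after dropping genes that did not reach 1 FPKM in 3 or more libraries. It was tested on simulated data, where 196 of 200 genes changed 4-fold were recovered among 10296 tested, with 11 other genes called. The simulation gave all genes the same relative spread, changed only genes at higher levels and held no library that stands apart. Its recovery is therefore not that of the fit to the real libraries. Libraries with the same number deviated together with r of 0.138, 0.140 and 0.552 for numbers 1, 2 and 3, all above 0.1, so a fit with the number as a block is given beside the unpaired fit, which is the main one because the study's test was unpaired. Control library 2 and aminophylline library 1, which do not share a number, had an r of 0.423, and the labels do not say what the numbers share. Other work used Python 3.11.15, pandas 2.3.3 and scipy 1.17.1.

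The genes and lists were chosen with earlier results of these data known. Genes named were the 10 genes, up to 4 of each list by mean FPKM and up to 4 by FPKM in control library 1, the 10 most alike in pattern and the 15 highest of those 5-fold above every other library. Ctsc, Ctso, Ctsz, Cd79a, Fabp4, Lipa, Lcp1, Fcgr3, Ccl9 and Krt18 fall outside this rule and were named after their values were seen. The alternatives were another pseudocount (0.1), no filter, rescaling, an unmoderated model, the replicate block, leaving out each library, other folds and minimums, and voom on the recovered reads.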

Additional observations from a re-analysis of the deposited data

How the results depend on the processing

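The 9 genes that peaked in control library 1 numbered 9 under each of the 2 other scalings tried. The log2 ratio of the summed level of all 10 genes, -0.52, was -0.57 after rescaling, -0.25 with medians, -0.46 without Ctss and -0.50 in RPM. Leaving out 1 library at a time gave -0.77 to -0.04, the latter without control library 1. In alternatives chosen after seeing the data it was -4.20 without C1qb and 0.45 without C1qb and control library 1. The 37 genes standing apart in control library 1 became 52 at 3-fold and 29 at 10-fold. They numbered 59 after rescaling, where the minimum of 1 applied to the rescaled values and so admitted genes at a lower FPKM. There were 15 at an FPKM of at least 5 and, chosen after seeing the data, 89 by RPM with at least 20 reads.

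The fit across all genes depended more on the settings. None of the listed genes tested was called in the main fit, with the replicate block, without control library 1 or with voom. In the main fit only 2 of the 10 genes and 66 of the 210 others in the table were tested, and a gene confined to 1 library cannot pass the filter. Of all genes tested, 3.21% were called in the main fit and 1.71% without control library 1. With the replicate number as a block, 268 of the 10340 genes tested were higher and 127 lower. Of these tested genes, 35 higher and 12 lower had an adjusted p under 0.05 (limma), where the unblocked fit had 0. The unmoderated model gave 99 higher and 59 lower. Voom on the recovered reads, chosen after seeing the data, gave 310 higher and 189 lower of the 10340 genes tested. Leaving out 1 library gave 119 to 850 higher and 56 to 398 lower. The counts moved over 1.5 times without control library 1 (119 higher, 56 lower), control library 2 (351 and 398), control library 3 (850 higher) and aminophylline library 1 (465 higher). The cause was not tested. Depth limits single libraries most in control library 2, where the floor of 3 reads is 0.213 RPM.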
